A study of Homo sapiens with 9 samples.

Results

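Keratins are the intermediate filament proteins of epithelial cells, and their genes were followed here in RKO cells, an established human colorectal cancer cell line, on Agilent gene expression arrays. The members are the 55 genes with a KRT number that the array names, keratin-associated proteins and pseudogenes left out, read by 64 of its 50599 noncontrol probes. Of them 27 lie on chromosome 12 and 28 on chromosome 17. There were 9 RNA samples, each on 1 array. siCONT cells received a control siRNA and ethanol as the mock drug (n = 2), and siUHRF1 cells received an siRNA against UHRF1 and the same mock (n = 2, siUHRF1-1 and siUHRF1-2, each a different siRNA). siCONT+TSA and siUHRF1+TSA cells (n = 2 each, again siUHRF1-1 and siUHRF1-2) received 300 nM trichostatin A, an inhibitor of histone deacetylases, for 24 h after 72 h of siRNA. AZA cells received 1 µM 5-aza-2'-deoxycytidine, an inhibitor of DNA methyltransferases, for 72 h and no siRNA (n = 1). UHRF1 is a protein that helps maintain DNA methylation, and the comparisons ask how its depletion, TSA and their combination changed keratin mRNA levels. The arrays of each siUHRF1 group came from different siRNAs, so their spread includes the difference between siRNAs. For siCONT and siCONT+TSA no label says whether the arrays came from separate cultures, so their spread may be technical. The p-values measure the spread between these arrays, pooled over the groups.

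A keratin filament is built from pairs of one type I (acidic) and one type II (basic to neutral) protein. Simple epithelia such as the lining of the colon are known for KRT8 and KRT18 together with KRT19, KRT20 and, in some organs, KRT7. Stratified epithelia such as the epidermis use other pairs, KRT5 with KRT14 in basal cells and KRT1 with KRT10 above them, and hair and its inner root sheath have sets of their own. Apart from KRT18, human type I genes are clustered on chromosome 17, and type II genes are clustered on chromosome 12 with KRT18 at one end. By these classes the array holds 5 simple, 17 stratified, 6 other epithelial, 9 inner root sheath and 17 hair keratin genes, with KRT222 unclassed, and 28 are type I and 26 type II.

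Values below are the log2 signal of a probe minus the log2 of its array's 75th percentile signal, so 0 is the level of a probe at that percentile, and levels are compared between arrays for the same probe only. That percentile lay between 245.3 and 337.9 intensity units for siRNA-treated cells and at 821.6 for AZA. UHRF1 itself read 2.69 and 2.69 on the siCONT arrays, 0.36 and 0.07 on the siUHRF1 arrays, 2.87 and 2.86 on the siCONT+TSA arrays, -0.34 and -0.62 on the siUHRF1+TSA arrays and 3.69 on the AZA array, lower on the 4 arrays labelled siUHRF1 than on any other. All siRNA arrays shared 1 slide, on which mock and TSA cells took different rows and siCONT and siUHRF1 cells different columns, so slide position and treatment cannot be told apart. The AZA array was on another slide. Of 11 markers of colorectal epithelium, 4 were well above background on both siCONT arrays (CDX1, CDX2, KRT8 and KRT18), and CDH1, VIL1 and LGALS4 were not well above background on any array. Of 6 markers of other cell types, 2 were well above background on both siCONT arrays (VIM and COL1A1). The summed signal of those 6, relative to the 75th percentile, was 0.879 to 1.04 on the 4 mock siRNA arrays, 5.42 to 6.15 on the 4 TSA arrays and 51.3 on the AZA array, most of it VIM. COL1A2 was well above background on the siUHRF1+TSA arrays and AZA alone, and COL3A1 and PECAM1 on no array. The summed signal of the 11 colorectal markers was 50.6 and 51.0 on siCONT, 55.3 to 62.7 on siUHRF1 and siCONT+TSA, 77.4 and 94.6 on siUHRF1+TSA and 48.8 on AZA, most of it KRT18. The part of these markers in the keratin results was not tested. In RNA of a whole culture, a change in the number of cells that express a gene and a change in its RNA per cell cannot be told apart.

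A minority of keratin genes gave a signal in siCONT cells, and by the scanner's well-above-background call the number was highest with UHRF1 depletion plus TSA and with AZA. By its laxer positive-and-significant call, siCONT+TSA replicate 1 held 39 keratin probes against 37 on the siUHRF1-2 array with TSA, so that order did not hold for every array. Well above background is the scanner software's call against the local background. On both arrays of the group, 17 keratin probes (15 genes, 26.6% of 64) passed it in siCONT, 20 (16 genes, 31.2%) in siUHRF1, 17 (15 genes, 26.6%) in siCONT+TSA and 26 (22 genes, 40.6%) in siUHRF1+TSA, and 31 (27 genes, 48.4%) passed on the AZA array. Over all noncontrol probes the shares were 43.5%, 44.4%, 42.7%, 44.5% and 51.6%. The share of keratin probes was thus lower than the array's in each group, by the least on the AZA array and in siUHRF1+TSA. By gene, siUHRF1+TSA against siCONT had 4 and 3 simple keratins, 7 and 4 stratified keratins, and 8 and 5 hair keratins above background. The same 15 genes were above background on all 9 arrays. At the other end, 27 genes never passed on every array of a group: KRT1, KRT2, KRT5, KRT6A, KRT6B, KRT6C, KRT13, KRT16, KRT24, KRT25, KRT26, KRT27, KRT28, KRT33B, KRT35, KRT36, KRT37, KRT38, KRT40, KRT71, KRT72, KRT75, KRT76, KRT79, KRT82, KRT84 and KRT222.

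**Figure D1:**
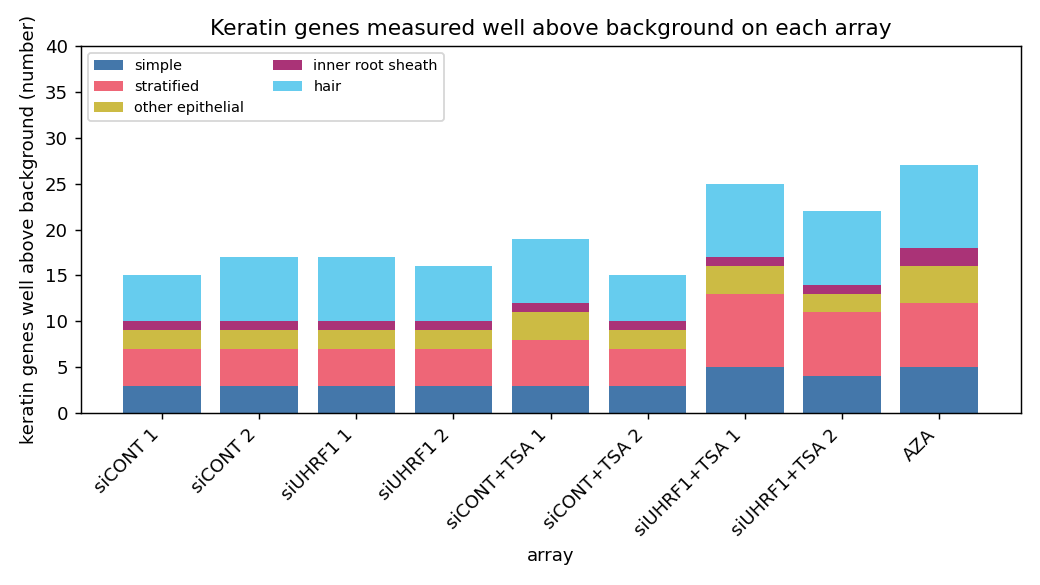
Number of keratin genes with at least 1 probe well above background (y axis) on each of the 9 arrays (x axis), stacked by keratin class. The siUHRF1+TSA arrays held 25 and 22 genes and the AZA array 27, against 15 to 19 on the other 6 arrays.

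Of the 64 keratin probes, 26 (22 genes) passed the background call in duplicate in some siRNA group and were tested on the 8 siRNA arrays with limma. A probe is called when its Benjamini-Hochberg adjusted p over all 23726 tested probes is below 0.05. Since 9 of the 26 entered without being above background in siCONT, and 6 of these through siUHRF1+TSA alone, the counts below are descriptions of the members that passed and not of all 64. UHRF1 depletion plus TSA against siCONT gave 14 keratin probes called higher and 1 lower, where 15% of all tested probes were called higher and 8.24% lower. Against siCONT+TSA, 5 were higher and 0 lower (2.96% and 0.573% of all probes), and against siUHRF1, 7 were higher and 1 lower (9.96% and 5.52%). UHRF1 depletion alone gave 1 higher and 0 lower (0.518% and 0.0379%), with 8 keratin probes at an unadjusted p under 0.05. TSA alone gave 0 higher and 1 lower (6.46% and 3.95%), with 4 at an unadjusted p under 0.05. These comparisons share arrays: the siUHRF1+TSA arrays stand in 3 of them and the siCONT arrays in 3. They also share a pooled spread. Over 28 keratin genes the median difference between a group's arrays was 0.46 in siUHRF1, 0.38 in siUHRF1+TSA, 0.11 in siCONT and 0.13 in siCONT+TSA. Fitted on siCONT and siCONT+TSA arrays alone, whose spread may be technical, TSA gave 7 higher and 1 lower of 17 keratin probes. Of all 22508 probes in that fit, 6045 were called higher and 3884 lower.

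Arrays of single groups bore on these counts. The 15 calls of siUHRF1+TSA against siCONT became fewer when either siCONT array or the siUHRF1-1 array with TSA was left out. They became more without the siUHRF1-2 array with TSA. Over all probes the calls became fewer in each of these fits, which leave 1 array in a group. When only probes above background on every array were tested, 8 of 17 keratin probes were called (7 higher and 1 lower). Of all 20750 probes tested in that way, 3046 were called higher and 1985 lower.

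**Figure D2:**
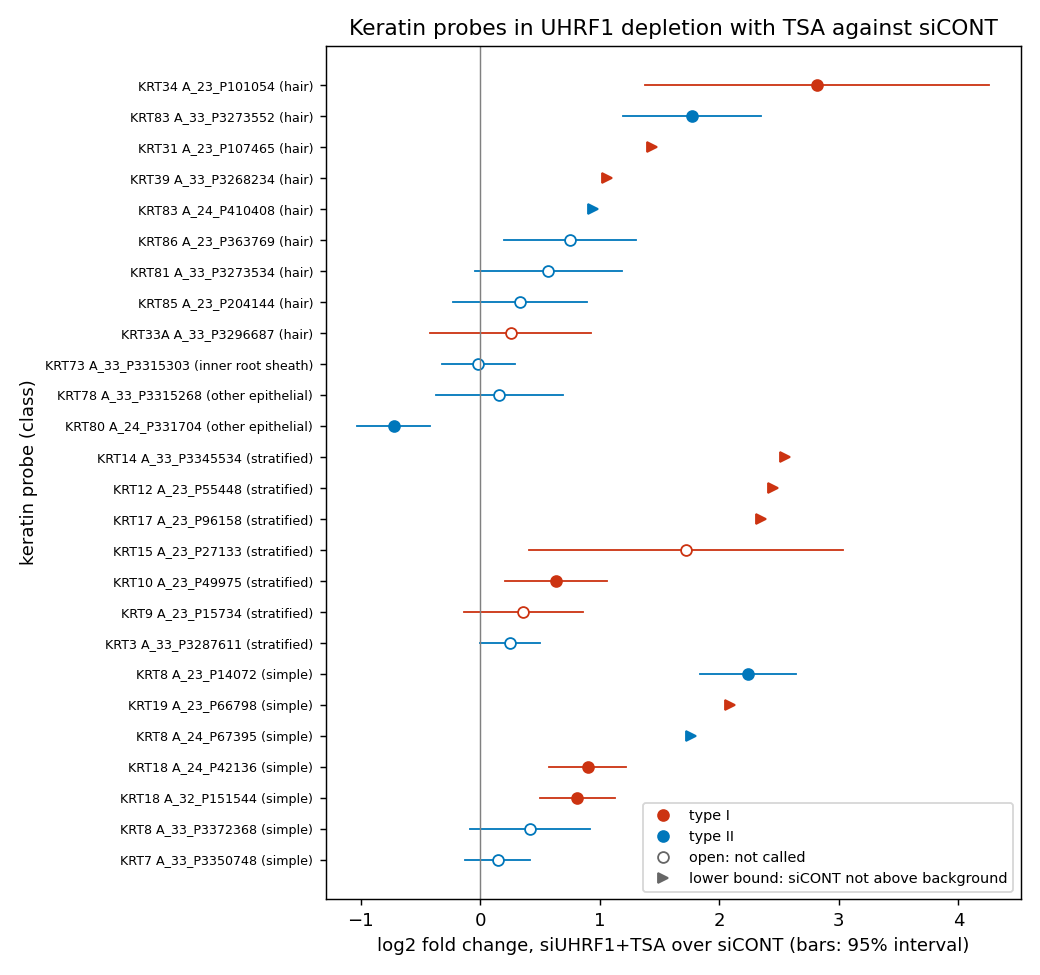
Log2 fold change of siUHRF1+TSA over siCONT (x axis) with its 95% interval for the 26 tested keratin probes (y axis), ordered by class. Red is type I and blue type II, open points were not called, and triangles mark a lower bound with no interval, for probes that failed the background call on both siCONT arrays. Of the points with an interval KRT34 (2.82) and KRT8 A_23_P14072 (2.24) lie farthest to the right.

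Counted over all genes on the array, with a gene called when any of its probes was, 11 of 55 keratin genes were called higher in siUHRF1+TSA than in siCONT and 1 lower. Over all tested probes 15% were called higher and 8.24% lower, and the 3557 called higher came from 50599 probes on the array. KRT12, KRT14, KRT17, KRT19 and KRT39 entered the test only through siUHRF1+TSA, where they are high. KRT31 entered only through siUHRF1 and siUHRF1+TSA, so nothing is read from these counts. By class these were 3 of 5 simple, 4 of 17 stratified, 4 of 17 hair, 0 of 9 inner root sheath and 0 of 6 other epithelial genes higher, and the gene that was lower is an other epithelial keratin. By type they were 9 of 28 type I genes and 2 of 26 type II genes higher, and 1 type II gene lower.

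**Figure D3:**
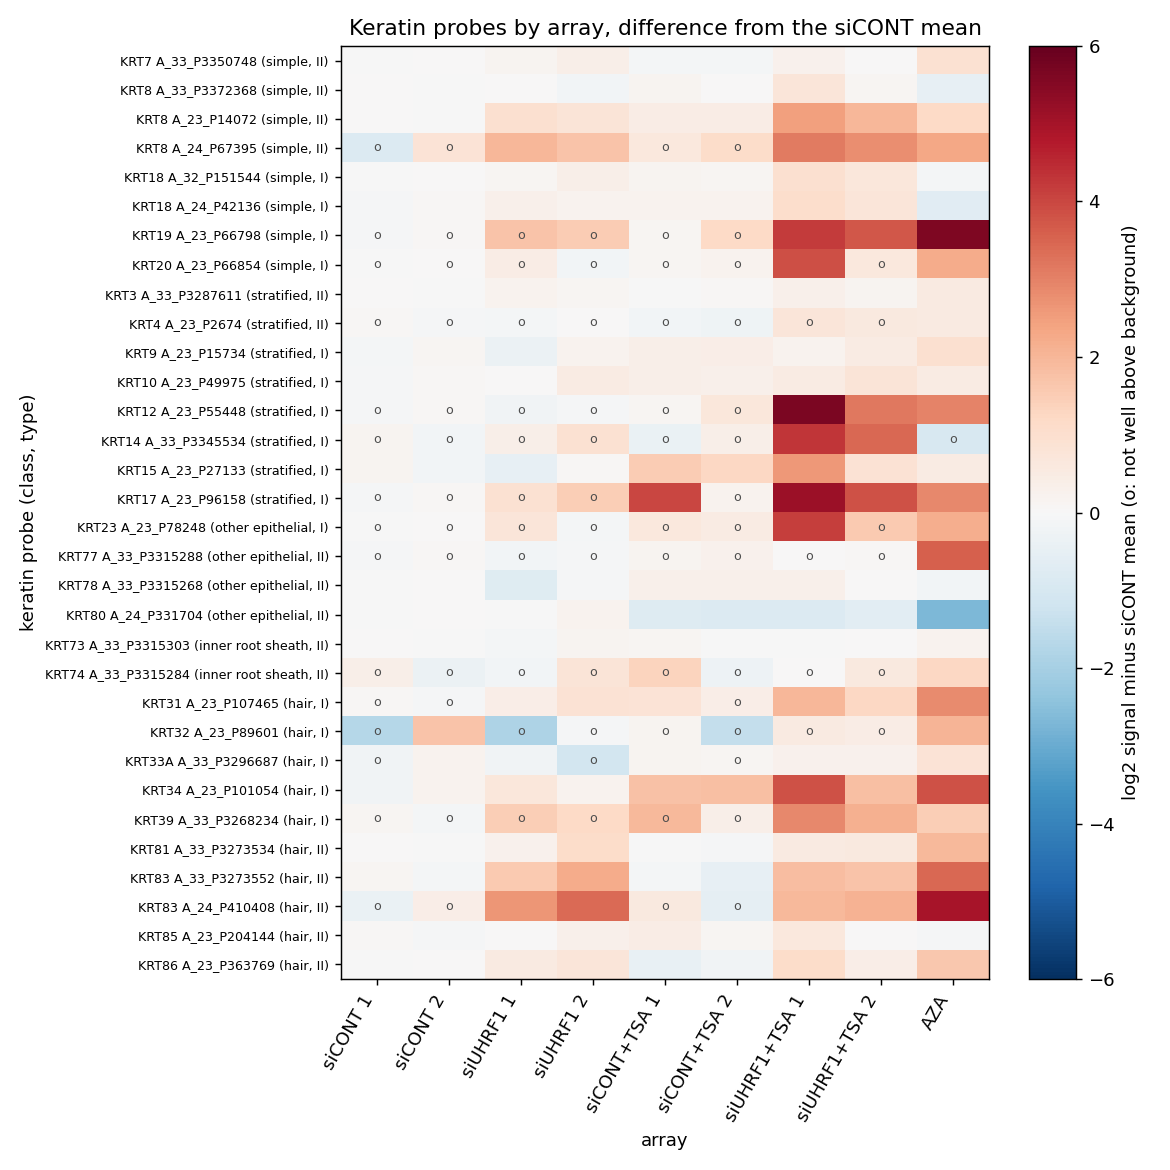
Log2 signal minus the siCONT mean (colour) of the 32 keratin probes that passed the filter of either fit (y axis, with class and type) on the 9 arrays (x axis). Small circles mark values not well above background. Among the siRNA arrays KRT12, KRT14, KRT17 and KRT19 are darkest on siUHRF1+TSA, and KRT77 stands out on the AZA array only.

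Among the simple keratins, KRT8 and KRT19 showed the largest differences. KRT8 encodes the type II partner of KRT18 in simple epithelia. Its probe A_23_P14072 read 0.57 and 0.51 on the siCONT arrays, 1.5 and 1.34 on siUHRF1, 1.01 and 0.98 on siCONT+TSA, 3.02 and 2.54 on siUHRF1+TSA and 1.75 on AZA. No siUHRF1+TSA value overlapped any other array, an order whose share over all probes was not counted. The log2 fold change over siCONT was 2.24 ± 0.17 (SE) with adjusted p = 0.000721, over siCONT+TSA 1.79 ± 0.17 with adjusted p = 0.00337, and over siUHRF1 1.37 ± 0.17 with adjusted p = 0.00687 (limma). UHRF1 depletion alone moved this probe by 0.88, which was not called (adjusted p = 0.13).

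A second KRT8 probe, A_24_P67395, was not well above background on any siCONT or siCONT+TSA array and read -3.55 and -3.82 on siUHRF1, -2.40 and -2.73 on siUHRF1+TSA and -3.19 on AZA. Against siCONT the siUHRF1+TSA level was at least 3.38-fold higher (adjusted p = 0.0105). Here and below, such a bound sets the mean of the brighter group against, for each array of the dimmer group, the higher of the probe's own value and the lowest signal that passed as well above background there. The adjusted p beside a bound is limma's for the values as read and not for the bound. KRT12, KRT14, KRT17, KRT19 and KRT39 entered the test only through siUHRF1+TSA, where they are high, so nothing is read from their adjusted p. Likewise, KRT8 A_24_P67395, KRT31 and KRT83 A_24_P410408 entered only through siUHRF1 and siUHRF1+TSA, where they are high. Nothing is read from their adjusted p against siCONT or siCONT+TSA, nor from those of related probes above background on siUHRF1+TSA alone. Leaving out the siUHRF1-1 array with TSA ended the call of A_24_P67395. The third probe named KRT8, A_33_P3372368, is the brightest of them and behaved differently, at 2.04 and 2.02 on siCONT against 2.76 and 2.13 on siUHRF1+TSA (log2 fold change 0.41 ± 0.21, adjusted p = 0.197). It is annotated to an Ensembl transcript, and on hg19 it lies at chr12:53343241-53343300 on the minus strand, 48246 bases from A_24_P67395 and 2277 bases from a probe of KRT18, which is on the plus strand. It is the probe that leads KRT8 by the naming rule, so the KRT8 calls rest on A_23_P14072 and A_24_P67395, which were singled out after their values were seen. Of these, only A_23_P14072 was above background in siCONT.

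KRT18, the type I partner of KRT8, has 2 probes. A_32_P151544 read 5.42 and 5.45 on siCONT, 5.58 and 5.80 on siUHRF1, 5.60 and 5.57 on siCONT+TSA, 6.38 and 6.11 on siUHRF1+TSA and 5.33 on AZA. The siUHRF1+TSA arrays were again the highest. Its log2 fold change over siCONT was 0.81 ± 0.13 (adjusted p = 0.00869), and that of A_24_P42136 was 0.90 ± 0.13 (adjusted p = 0.00676). Against siUHRF1 both probes were called (0.56 and 0.64), and against siCONT+TSA neither was (0.66 and 0.69, adjusted p = 0.0538 and 0.0503). Over siCONT the call of A_32_P151544 was lost without either siCONT array and that of A_24_P42136 without siCONT replicate 1, and over siUHRF1 both were lost without most single arrays, siUHRF1-1 with TSA included. No keratin spot was saturated on any array.

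KRT19, a small type I keratin of simple epithelia, was not well above background on any siCONT, siUHRF1 or siCONT+TSA array. It read -2.01 and -2.45 on siUHRF1+TSA and -0.59 on AZA. The siUHRF1+TSA level was at least 4.26-fold higher than siCONT (adjusted p = 0.0014), at least 3.76-fold higher than siCONT+TSA (adjusted p = 0.00574) and at least 4.69-fold higher than siUHRF1 (adjusted p = 0.0117), the last lost without either siUHRF1-1 array. With another background correction, normexp, all 3 calls were lost, at log2 fold changes of 0.90, 0.25 and 0.80 in the same order. Below the background call, the siUHRF1 arrays read -4.50 and -4.67, siCONT -6.26 and -6.14, and siCONT+TSA -6.10 and -5.00. These differences have no measured size, and UHRF1 depletion alone was not called for KRT19 (limma, adjusted p = 0.188). KRT7, the type II keratin of many glandular epithelia, read 3.65 to 4.09 on the 8 siRNA arrays and was called in none of their comparisons. KRT20, a type I keratin of differentiated intestinal cells, was above background on the siUHRF1-1 array of siUHRF1+TSA alone among the siRNA arrays (-2.35, against -5.61 for siUHRF1-2), so it did not enter the test.

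**Figure D4:**
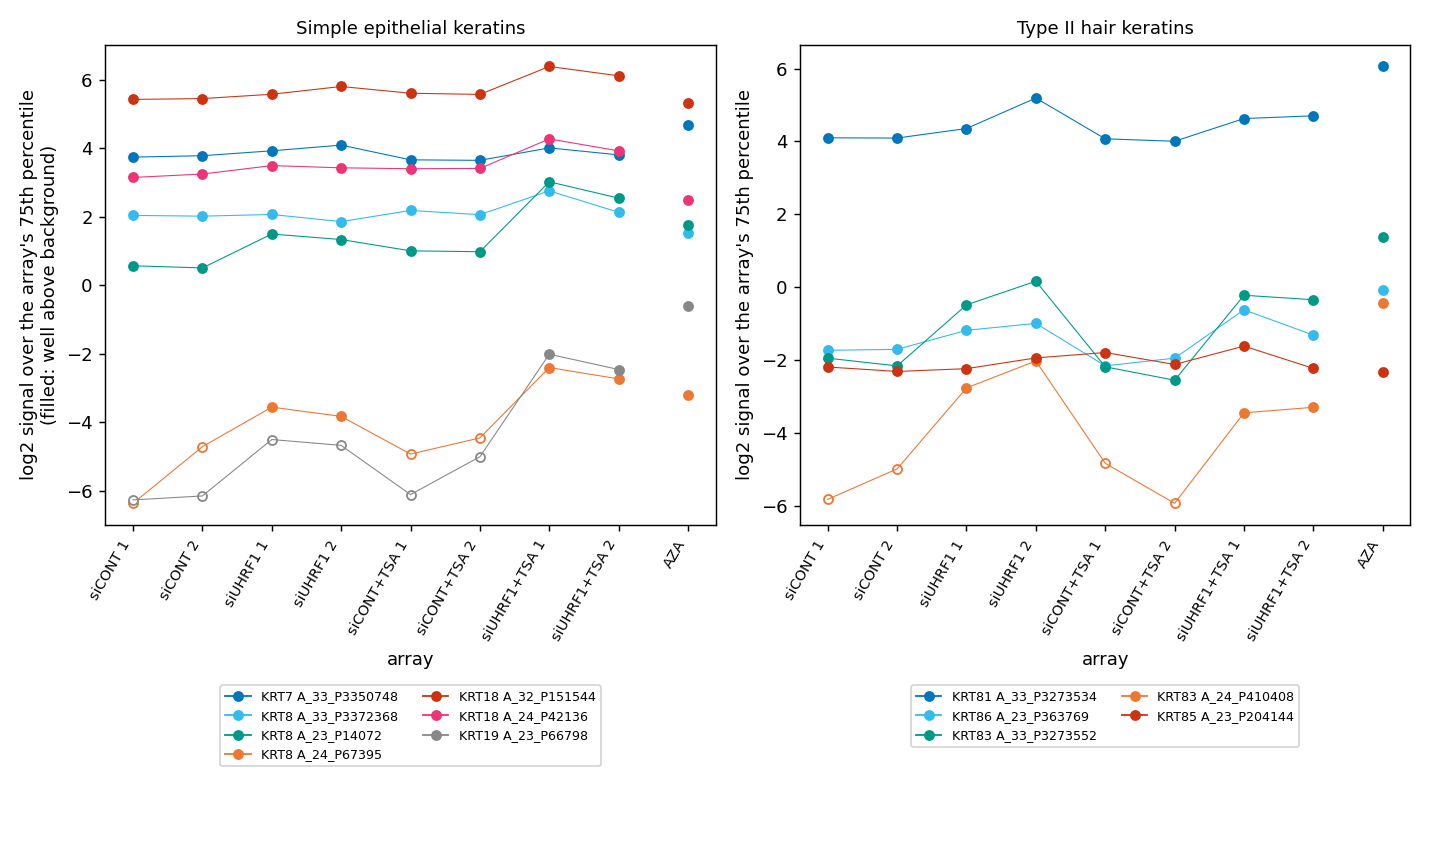
Log2 signal over the array's 75th percentile (y axis) of simple epithelial keratin probes (left) and type II hair keratin probes (right) on each array (x axis). Filled points are well above background and lines join the siRNA arrays only. The KRT8 probes A_23_P14072 and A_24_P67395 and the KRT19 probe are highest of the siRNA arrays on siUHRF1+TSA, and both KRT83 probes are higher on siUHRF1 and siUHRF1+TSA than on siCONT and siCONT+TSA.

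Among the stratified keratins, 4 type I genes were called higher in siUHRF1+TSA over siCONT. KRT12, known from the corneal epithelium, was not well above background on the other 6 siRNA arrays and read -0.62 and -3.13 on siUHRF1+TSA, at least 5.45-fold above siCONT (adjusted p = 0.00972). The 2 siUHRF1+TSA arrays differed by 2.51 on the log2 scale, and the call was lost when either siCONT array was left out. It was also called over siCONT+TSA (at least 4.81-fold, adjusted p = 0.0428), a call lost without any siCONT, siUHRF1 or siCONT+TSA array, and over siUHRF1 (at least 6.06-fold, adjusted p = 0.0143), lost without siUHRF1-1. KRT10, the type I keratin of suprabasal epidermis, was bright throughout, at 4.54 and 4.64 on siCONT and 5.08 and 5.37 on siUHRF1+TSA, with a log2 fold change of 0.64 ± 0.18 (adjusted p = 0.0467) that was lost on leaving out any siCONT, siCONT+TSA or siUHRF1+TSA array. KRT15, a keratin of basal cells, read -1.42 and -1.78 on siCONT, -0.09 and -0.34 on siCONT+TSA and 1.00 and -0.76 on siUHRF1+TSA. Its 1.72 ± 0.54 over siCONT was not called (adjusted p = 0.0664).

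KRT14, the type I keratin of basal epidermal cells, and KRT17, a type I keratin of hair follicles and of stressed epidermis, need their probes to be read with care. The probe sequences below are those of the 2 probes that carried the calls and of 1 KRT83 probe used further on. Capitals mark bases that another probe of the array, named for no keratin gene, has at the same place when both are aligned without gaps.
KRT14 A_33_P3345534: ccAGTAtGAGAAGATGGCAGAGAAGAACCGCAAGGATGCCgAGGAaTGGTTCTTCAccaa
KRT17 A_23_P96158: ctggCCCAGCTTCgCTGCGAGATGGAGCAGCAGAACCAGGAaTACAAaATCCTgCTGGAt
KRT83 A_24_P410408: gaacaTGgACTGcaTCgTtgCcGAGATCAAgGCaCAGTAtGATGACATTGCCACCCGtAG
On hg19 these lie at chr17:39740013-39740072, chr17:39776976-39777035 and chr12:52710677-52710736, all on the minus strand. The KRT14 and KRT17 probes each share 51 of 56 overlapping bases with a probe placed elsewhere on chromosome 17, A_24_P887857 at chr17:28895838-28895897 and A_24_P882732 at chr17:16745338-16745397. The KRT83 probe shares 44 of 55 with A_33_P3269503 at chr12:52647414-52647473. Among the 64 keratin probes only these and 1 KRT75 probe had a relative with at least 40 identical bases.

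KRT14 A_33_P3345534 was not well above background on any siCONT, siUHRF1, siCONT+TSA or AZA array and read -1.36 and -2.19 on siUHRF1+TSA. This was at least 5.85-fold above siCONT (adjusted p = 0.00184), at least 5.17-fold above siCONT+TSA (adjusted p = 0.00398) and at least 6.51-fold above siUHRF1 (adjusted p = 0.0058). The probe entered the test only through siUHRF1+TSA, where it is high, so nothing is read from these p-values. With normexp background all 3 calls were lost, at log2 fold changes of 0.99, 0.38 and 1.03 in the same order. This was not particular to KRT14 and KRT19. Normexp also ended the calls over siCONT of KRT8 A_24_P67395, KRT10, KRT12, KRT31, KRT39 and KRT83 A_24_P410408. It ended the other KRT12 calls, those of KRT18 over siUHRF1, and those of KRT83 A_33_P3273552 for UHRF1 depletion alone and under TSA. The other 2 KRT14 probes, A_21_P0011633 and A_21_P0011517, were not well above background on any array and read -6.61 and -6.58, and -6.25 and -6.59, on the same siUHRF1+TSA arrays. The related probe A_24_P887857 read -2.40 and -3.11 there, was above background on no other array, and was at least 2.96-fold above siCONT (adjusted p = 0.00504). KRT14 and a near copy cannot be told apart by this probe.

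KRT17 A_23_P96158 read -6.51 and -6.41 on siCONT, -5.54 and -4.99 on siUHRF1, -2.47 and -6.26 on siCONT+TSA, -1.32 and -2.62 on siUHRF1+TSA and -3.59 on AZA. It was above background on both siUHRF1+TSA arrays, on 1 of 2 siCONT+TSA arrays and on AZA. The siUHRF1+TSA level was at least 5.1-fold above siCONT (adjusted p = 0.0369), and leaving out any siCONT, siUHRF1 or siUHRF1+TSA array ended the call. Its relative A_24_P882732 read -2.74 and -3.47 on siUHRF1+TSA and was above background on no other array, at least 2.32-fold above siCONT (adjusted p = 0.013). The siCONT+TSA array that was high for KRT17 read -6.33 for the relative.

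**Figure D5:**
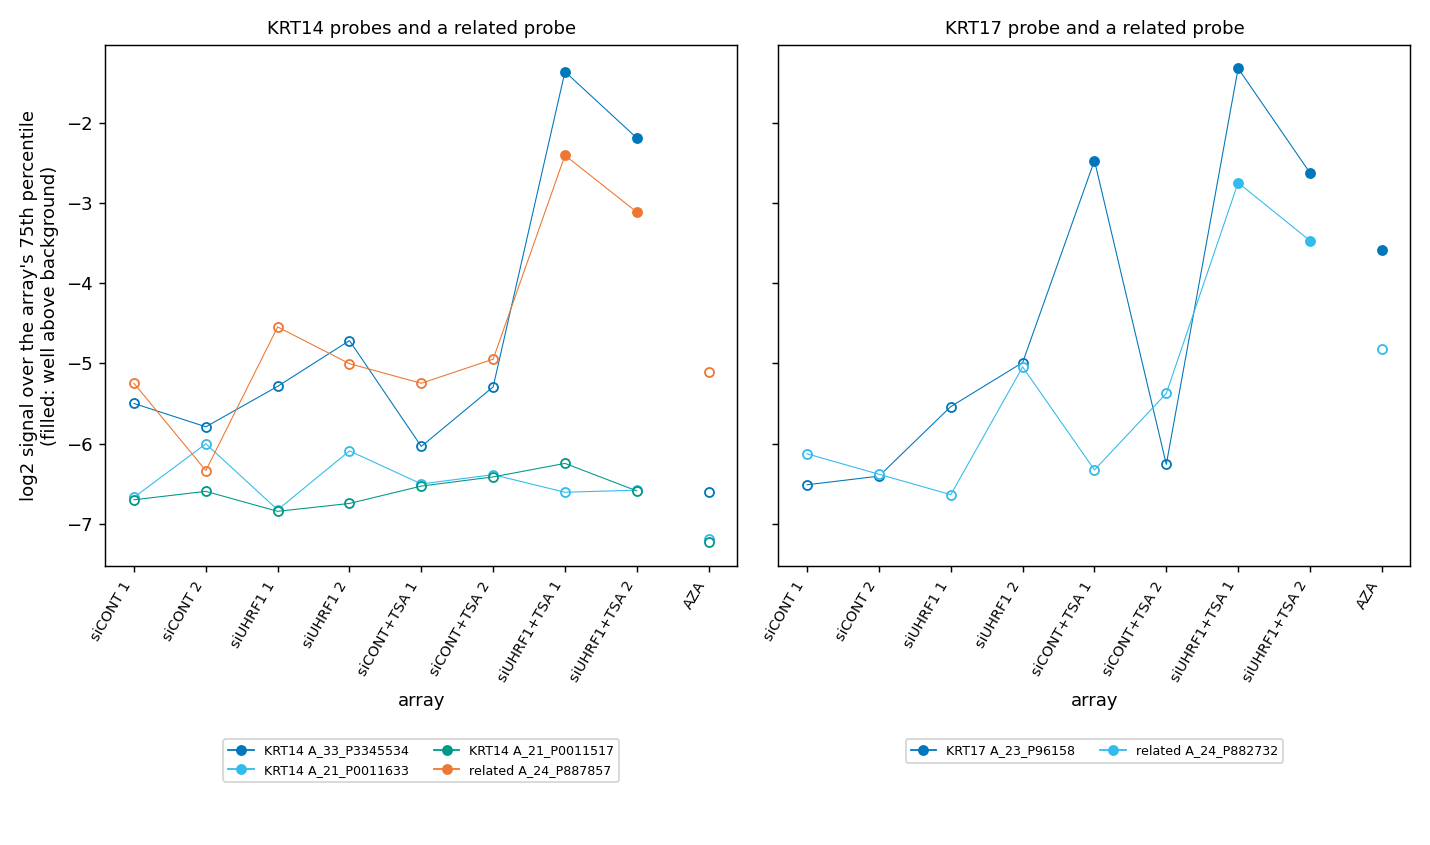
Log2 signal over the array's 75th percentile (y axis) on each array (x axis) of the 3 KRT14 probes and a related probe (left) and of the KRT17 probe and a related probe (right). Filled points are well above background. On siUHRF1+TSA 1 KRT14 probe and both related probes are filled, and the other KRT14 probes are open on every array.

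The remaining stratified keratins changed little or gave no signal. KRT3 and KRT9, keratins of the cornea and of palm and sole skin, were above background on every array and were called in no comparison of siRNA arrays (0.25 and 0.36 for siUHRF1+TSA over siCONT). KRT1, the suprabasal partner of KRT10, passed the background call on 1 array only, siUHRF1-1 with TSA (-3.63, against -5.39 for siUHRF1-2).

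In the hair keratins, the neighbouring type II genes KRT81, KRT83 and KRT86 had higher values on all 4 UHRF1-depleted arrays than on the 4 siCONT and siCONT+TSA arrays, and only KRT83 was called. This order is not particular to them, as probes of KRT3, KRT7, KRT8, KRT18 and KRT19 showed it too. Its share over all probes was not counted. The probes of KRT81, KRT83 and KRT86 lie close together on chromosome 12, 23082 bases apart for KRT81 and KRT86 and 6805 bases for KRT86 and KRT83. KRT83 A_33_P3273552 read -1.95 and -2.16 on siCONT, -0.49 and 0.16 on siUHRF1, -2.19 and -2.56 on siCONT+TSA, -0.22 and -0.35 on siUHRF1+TSA and 1.39 on AZA. The 4 UHRF1-depleted arrays did not overlap the 4 siCONT and siCONT+TSA arrays. The log2 fold change was 1.89 ± 0.24 for UHRF1 depletion alone (adjusted p = 0.0357), 2.09 ± 0.24 for depletion under TSA (adjusted p = 0.00759) and 1.77 ± 0.24 for the combination over siCONT (adjusted p = 0.00501). The first of these is the single keratin call of UHRF1 depletion alone, and it was lost on leaving out any siRNA array other than siUHRF1 replicate 1. The call under TSA was lost without siUHRF1-1 with TSA.

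The second KRT83 probe, A_24_P410408, was above background on the same 4 arrays and on AZA, at -2.77 and -2.03 on siUHRF1, -3.45 and -3.30 on siUHRF1+TSA and -0.44 on AZA. It was at least 3.79-fold higher in siUHRF1 than in siCONT (adjusted p = 0.0672, not called) and at least 1.93-fold higher in siUHRF1+TSA (adjusted p = 0.0243), a call lost without any siCONT or siUHRF1+TSA array. Among siRNA groups this KRT83 probe entered only through the UHRF1-depleted ones, so nothing is read from its adjusted p. The related probe A_33_P3269503 was above background on no array. KRT81 read 4.10 and 4.09 on siCONT, 4.35 and 5.19 on siUHRF1, 4.07 and 4.0 on siCONT+TSA and 4.63 and 4.70 on siUHRF1+TSA. KRT86 read -1.74 and -1.71, -1.19 and -0.997, -2.16 and -1.95, and -0.62 and -1.32 in the same order. Over siCONT the combination gave 0.57 ± 0.25 for KRT81 (adjusted p = 0.155) and 0.75 ± 0.23 for KRT86 (adjusted p = 0.0607). The 3 genes are close paralogs, so their signals may not be fully separate. KRT85, another type II hair keratin of the cluster, read -2.32 to -1.62 on the siRNA arrays and was called in no comparison.

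Of the type I hair keratins on chromosome 17, KRT31, KRT34 and KRT39 were called higher in siUHRF1+TSA over siCONT. KRT34 read -3.31 and -2.94 on siCONT, -2.45 and -2.91 on siUHRF1, -1.36 and -1.34 on siCONT+TSA, 0.68 and -1.31 on siUHRF1+TSA and 0.70 on AZA. It was 2.82 ± 0.59 above siCONT on the log2 scale in siUHRF1+TSA (adjusted p = 0.0205) and 1.78 ± 0.59 in siCONT+TSA, which was not called (adjusted p = 0.111). The SE of 0.59 is pooled, while the SD was 1.41 in siUHRF1+TSA, 0.27 in siCONT and 0.01 in siCONT+TSA. The first call was lost when either siCONT array was left out. Over siUHRF1 it was 2.37 ± 0.59 (adjusted p = 0.0459), lost without any siCONT, siUHRF1 or siCONT+TSA array. KRT31 read -4.43 and -4.57 on siCONT, below background, and -2.50 and -3.28 on siUHRF1+TSA. It was at least 2.7-fold (adjusted p = 0.0137) and KRT39 at least 2.08-fold (adjusted p = 0.0195) higher in siUHRF1+TSA than in siCONT, and KRT33A was not called (0.25, adjusted p = 0.548). The KRT31 and KRT39 calls were lost without either siCONT array, and that of KRT39 also without siUHRF1-1 with TSA. Neither gene was above background in siCONT, so nothing is read from their adjusted p. All 4 encode acidic keratins of the hair shaft.

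For 34 of the 55 keratin genes RefSeq promoters (GRCh38.p14) were at hand, and no promoter of KRT14, KRT17, KRT18, KRT19, KRT81, KRT83 or KRT86 was among them. Over the 250 bases before the start, keratin promoters held a median of 2 CG dinucleotides (0 to 7), where the median over 27305 genes was 11. TATAAA, searched on both strands, stood in 20 of the 34 (58.8%) and in 11.1% of all genes. The 3 sequences below are those of type I genes that were called higher in siUHRF1+TSA and on AZA, shown for how few CG they hold. Each is the sense strand, with TATAAA in capitals where present.
KRT12: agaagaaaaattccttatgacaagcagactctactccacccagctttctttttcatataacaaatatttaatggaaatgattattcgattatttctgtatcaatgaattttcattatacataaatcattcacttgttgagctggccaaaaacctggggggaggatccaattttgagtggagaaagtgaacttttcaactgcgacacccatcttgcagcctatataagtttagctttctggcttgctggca
KRT31: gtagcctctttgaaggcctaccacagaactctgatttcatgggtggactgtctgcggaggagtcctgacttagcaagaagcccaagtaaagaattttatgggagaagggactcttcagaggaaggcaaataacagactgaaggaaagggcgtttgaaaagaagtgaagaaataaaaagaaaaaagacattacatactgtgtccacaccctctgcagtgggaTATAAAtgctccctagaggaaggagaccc
KRT34: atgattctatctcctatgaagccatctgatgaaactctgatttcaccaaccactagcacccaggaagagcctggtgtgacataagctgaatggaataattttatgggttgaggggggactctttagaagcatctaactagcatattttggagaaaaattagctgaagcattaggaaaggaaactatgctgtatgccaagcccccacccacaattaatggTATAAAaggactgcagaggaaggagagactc
On GRCh38.p14 they lie on the minus strand at chr17:40867224-40867473, chr17:41397609-41397858 and chr17:41382307-41382556. KRT12 and KRT31 hold 2 CG each and KRT34 holds 0. Methylation was not measured on these arrays.

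KRT80, a type II keratin of many epithelia, moved the other way. It read 4.64 and 4.65 on siCONT, 4.61 and 4.87 on siUHRF1, 3.86 and 3.82 on siCONT+TSA, 3.83 and 4.02 on siUHRF1+TSA and 1.95 on AZA. All 4 TSA arrays were below all 4 mock arrays, an order whose share over all probes was not counted. TSA alone lowered it by a log2 fold change of -0.81 ± 0.13 (adjusted p = 0.0181), the combination over siCONT by -0.72 ± 0.13 (adjusted p = 0.0113) and the combination over siUHRF1 by -0.81 ± 0.13 (adjusted p = 0.0127). The call for TSA alone was lost on leaving out any siCONT or siCONT+TSA array, and that of the combination over siCONT on leaving out either siCONT array, and that over siUHRF1 without siUHRF1-1 with TSA. KRT78, an epithelial type II keratin, and KRT73, one of the inner root sheath, were above background on every array and called in no comparison.

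The question of whether TSA changed the effect of UHRF1 depletion was put to the 26 probes as an interaction. No keratin probe was called (limma, with 4 at an unadjusted p under 0.05), where 0.358% of all probes were called higher and 0.0211% lower. For KRT8 A_23_P14072, above background on all arrays, the log2 effect of depletion with TSA minus that without was 0.91 ± 0.23 (adjusted p = 0.488). The other 3 were KRT12, KRT14 and KRT19, which were not well above background in any siRNA group but siUHRF1+TSA and entered the test through it, so no size is given for them. Without the siUHRF1-2 array of siUHRF1+TSA, which leaves 1 array in that group, some keratin probes were called, and the calls over all probes rose as well.

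The siUHRF1+TSA arrays, made with different siRNAs, differed for some keratins. On siUHRF1+TSA the siUHRF1-1 array was above the siUHRF1-2 array for 20 of the 26 tested keratin probes, against 47.2% of all tested probes, and by over 1 on the log2 scale for 4 of them and for 1.37% of all. The 4 were KRT12 (2.51), KRT34 (1.99), KRT15 (1.75) and KRT17 (1.30). Outside the test KRT1, KRT20 and KRT23 A_23_P78248 were well above background on the siUHRF1-1 array and not on the siUHRF1-2 array, so their differences have no measured size. Without TSA, the siUHRF1-1 array was the higher for 9 of the 26 and by over 1 for 0, where it was the higher for 35.8% of all probes. The siCONT+TSA arrays, which share 1 control siRNA, also differed, with replicate 1 higher for 17 of the 26 and by over 1 for 3, and replicate 2 by over 1 for 1. Over all probes replicate 1 was higher there for 57.0% and by over 1 for 0.961%. With 1 array per siRNA and treatment this has no test.

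AZA was compared with siCONT on 32 keratin probes (28 genes) in a fit of all 9 arrays, in which the lone AZA array is taken to vary like the other groups. Of them 15 were called higher and 2 lower, where 24.1% of all 27175 probes were called higher and 24.8% lower. Of the 32 probes, 6 entered through the AZA array alone and 9 through siRNA groups without siCONT. Nothing is read from these counts, nor from an adjusted p beside a bound. Under scaling to the spike-in controls the split was 6 higher and 13 lower, since that scaling moved the median log2 fold change of all probes from 0.01 to -1.68, so the AZA values stand relative to the 75th percentile only. The AZA array also lay on the other slide. KRT19 was at least 13.3-fold higher (adjusted p = 0.000282), KRT83 3.44 ± 0.30 on the log2 scale and at least 14.7-fold by its 2 probes (adjusted p = 0.000399 and 0.00114), KRT34 3.82 ± 0.75 (adjusted p = 0.00813) and KRT31 at least 6.32-fold (adjusted p = 0.00193). KRT81 (6.06 on AZA, 1.96 ± 0.32) and KRT86 (-0.09 on AZA, 1.63 ± 0.29) were called higher as well (adjusted p = 0.00404 and 0.00543). None of these calls was lost on leaving out 1 siRNA array. With normexp background that of KRT31 was lost (0.82). With spike-in scaling that of KRT81 was lost (0.27) and KRT86 reversed (-0.059).

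KRT77, an epidermal type II keratin of sweat gland ducts, was above background on the AZA array alone (-2.93) and at least 2.62-fold higher there than in siCONT. KRT77 and KRT4 entered the test through that single array, so nothing is read from their calls. With normexp background the KRT77 call was lost (0.25). KRT7 (0.93), KRT8 A_23_P14072 (1.21), KRT9 (0.96) and KRT3 (0.55) were higher on the log2 scale, and KRT8 A_24_P67395 at least 2.18-fold, KRT12 at least 2.04-fold and KRT4 at least 1.01-fold. The calls of KRT3, KRT9 and KRT18 were lost without either siCONT array, that of KRT4 without siCONT replicate 2, and that of KRT12 without any array other than the siUHRF1+TSA arrays. KRT17, KRT20, KRT23, KRT32, KRT39 and KRT74, above background on AZA, were not called. KRT80 fell by 2.70 ± 0.16 (adjusted p = 8.74e-05), and KRT18 A_24_P42136 by 0.70 ± 0.17 (adjusted p = 0.0162), while the other KRT18 probe was not called (-0.11). KRT14, at -6.61, was not well above background on AZA, while KRT77 was not so on any siRNA array. By type, 5 of 28 type I and 8 of 26 type II genes were called higher on the single AZA array, whose own spread is unknown.

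Genes that work with keratins were followed in lists, whose counts stand beside 15% of all tested probes called higher and 8.24% lower in siUHRF1+TSA over siCONT. Of 18 desmosome and plakin genes, which anchor keratin filaments to the membrane, 10 were tested on the siRNA arrays, and 2 were higher and 0 lower in siUHRF1+TSA over siCONT (median log2 fold change 0.01, beside 0.05 over all probes). JUP, or plakoglobin, was not above background on the other siRNA arrays and at least 2.84-fold higher (adjusted p = 0.00236), and the linker PLEC was 1.15 ± 0.18 higher (adjusted p = 0.00793), while PKP4, a plakophilin relative, was not called (-0.65, adjusted p = 0.0629). Of 15 other intermediate filament genes 9 were tested, with 6 higher and 0 lower (median 0.96). VIM, the filament of mesenchymal cells, was 2.71 ± 0.12 higher (adjusted p = 0.000128) and 2.88 with TSA alone, NEFH, a neurofilament, was at least 2.6-fold higher (adjusted p = 0.000301), and LMNA, a nuclear lamin, was 0.80 ± 0.09 higher (adjusted p = 0.00305). LMNA read 3.22 and 3.24 on siCONT, 3.94 and 3.96 on siCONT+TSA and 4.10 and 3.97 on siUHRF1+TSA. JUP and NEFH entered the test only through siUHRF1+TSA, where they are high, so nothing is read from their adjusted p.

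Of 18 cornified envelope genes, products of differentiated epidermis, 8 were tested, with 1 higher and 1 lower (median -0.30): CNFN was 1.01 ± 0.18 higher (adjusted p = 0.0131), SPRR2F was lower with a log2 fold change of -1.79 ± 0.44 (adjusted p = 0.0334), and SPRR2E was not called (-2.35, adjusted p = 0.0568). With TSA alone 1 of the 8 was higher and 3 lower (6.46% and 3.95% of all probes). SPRR2F read 0.13 and 0.12 on siCONT, -2.40 and -2.99 on siCONT+TSA and -1.05 and -2.29 on siUHRF1+TSA. CNFN read -0.06 and -0.05, 0.78 and 0.68, and 0.90 and 1.01 in the same order. Of 16 epithelial transcription factor genes 9 were tested, with 1 higher and 1 lower (median 0.08). GRHL1, a grainyhead factor of epithelia, was lower with -0.83 ± 0.10 (adjusted p = 0.00354), SNAI1, a repressor of epithelial genes, 0.60 ± 0.11 higher (adjusted p = 0.0128), and KLF4 was not called (-0.74, adjusted p = 0.0566). Genes tested with AZA but not on the siRNA arrays entered through that single array. Among the other intermediate filament genes these were SYNM, INA, NEFL and NEFM, which are high there, so nothing is read from the AZA counts that follow. On AZA 11 of 13 tested other intermediate filament genes, 1 of 12 desmosome and plakin genes, 1 of 10 cornified envelope genes and 4 of 11 transcription factor genes were higher, and 0, 4, 4 and 2 were lower, beside 24.1% and 24.8% of all probes.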

How the data were processed

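Spots were read from 9 one-colour Agilent SurePrint arrays. Per the file headers, the authors deposited scanner output of Agilent Feature Extraction 10.7.3.1, with gProcessedSignal intensity (background subtracted, linear scale). The value table the authors deposited repeats these signals, linear and rounded, and served only as an alternative. Probe coordinates are hg19. Signals were taken as log2 minus the log2 75th percentile over noncontrol spots, outlier spots were dropped and spots of a probe averaged. Probes that passed the scanner's well-above-background call in duplicate in some siRNA group (or on AZA, in its fit) were tested with limma 3.58.1 (R 4.3.3) on all 8 siRNA arrays, or 9 for AZA, with Benjamini-Hochberg adjustment at 0.05. The fit was tested on simulated data. Same-numbered arrays of different groups deviated together only for siUHRF1-1 with and without TSA (r = 0.56, the others -0.06 to 0.08). Named were all keratin genes above background on every array of a group, each read first by its brightest probe, and the 3 genes of lowest p in each partner list. Members and lists were chosen with earlier results of these data known. The number of arrays limits the precision.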

Additional observations from a re-analysis of the deposited data

How the results depend on the processing

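Over 22 alternatives, 779 of the re-tested log2 fold changes of the 47 calls kept their call, 191 lost it and 9 reversed. The count of calls moved as follows, with the cause not tested where none is named. UHRF1 depletion alone, 1 call: 0 with normexp background, no filter, probes above background on every array, only the groups compared and the methods' t-test, 2 with spike-in scaling and with a trended and robust prior, and 5 at an unadjusted p below 0.05 and over 2-fold. TSA alone, 1: 2 with normexp, the t-test and the unadjusted rule, 0 with no filter and 8 with only the groups compared. Combination over siCONT, 15: 7 with normexp, 8 above background everywhere (17 probes tested) and 0 with the t-test. Combination over siCONT+TSA, 5: 1, 2 and 0 with the same settings, 8 with the trended prior and 10 with the unadjusted rule. Combination over siUHRF1, 8: 5 with normexp and spike-in scaling, 4 with only the groups compared and 0 with the t-test. Interaction, 0: 3 with the unadjusted rule. AZA, 17: 11 with normexp, 28 with no filter and 10 above background everywhere.

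With the replicate block, which takes equal numbers as pairs, the counts were 0 for UHRF1 depletion alone, 1 for TSA alone, 15, 4 and 7 for the combination over siCONT, siCONT+TSA and siUHRF1, and 0 for the interaction; only the first moved by over 1.5 times. Leaving out each array in turn gave 0 to 2, 0 to 3, 5 to 18, 4 to 11, 4 to 14, 0 to 3 and 13 to 21 calls for these 6 comparisons and AZA. The lowest counts came without siCONT replicate 1 (combination over siCONT) and without siUHRF1-1 with TSA (combination over siCONT+TSA, also without siCONT+TSA replicate 2, and over siUHRF1), and the highest counts of the last 5 comparisons without siUHRF1-2 with TSA. Over all probes the calls were also fewer in the fits with these lowest counts. For the interaction without siUHRF1-2 with TSA they were more over all probes too.

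The 9 reversals were all for AZA: with spike-in scaling KRT8 A_23_P14072 -0.49, KRT9 -0.73, KRT4 -1.14, KRT86 -0.059, KRT3 -1.15 and KRT7 -0.76, and with normexp KRT9 -0.10, KRT4 -0.66 and KRT8 A_24_P67395 -0.078. The spike-in scaling moved the median of all probes to -1.68 for AZA, -0.12 for TSA and -0.11 for the combination over siCONT, and normexp moved it to 0.15 for TSA and -0.29 for AZA. With the scanner's positive-and-significant call in place of well above background, 32 and 33 keratin probes passed on siCONT (main 17 and 19), 36 and 36 on siUHRF1 (21 and 20), 39 and 31 on siCONT+TSA (21 and 17), 42 and 37 on siUHRF1+TSA (29 and 26) and 45 on AZA (31). By brightest probe, the median log2 fold change of the simple keratin probes tested, combination over siCONT, was 0.61 in place of 0.90, with KRT19 in it only through siUHRF1+TSA. The 75th percentile over probes in place of spots, an alternative chosen after seeing the data, gave the same counts except 7 for the combination over siCONT+TSA. Slide and scan could not be fitted as a block.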
